A study of Mus musculus with 12 samples.

Results

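The transcriptome of mouse embryonic stem (mES) cells was compared between 2 doses of dTAG13, 10 nM and 1 nM, that both lower BRG1 but to different extents, so that the comparison covers the changes added when BRG1 already reduced at 1 nM is reduced further. The comparison rests on 4 of the 12 RNA-seq libraries, 2 at 10 nM and 2 at 1 nM, and on the 11328 of 24421 genes in the count table whose mean over these 4 libraries was at least 1 RPKM (counts divided by exon length in kb and by the normalised library total). All libraries came from B6 mES cells in 2i and LIF whose genotype is a Brg1 dTag knock in, made at the gene of BRG1 and grown out as a clone, with or without dTAG13 for 24 h in fresh medium. The other libraries, also 2 per dose, were made at 0 nM (no dTAG13), 0.3 nM, 3 nM and 100 nM, and every group carried the same degron, 0 nM included. No untagged cells treated with dTAG13 are among these libraries, so that effects of the compound itself cannot be told apart from effects of lower BRG1.

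BRG1, encoded by Smarca4, is the ATPase of the mSWI/SNF (BAF) chromatin remodelling complexes of mES cells, which slide and evict nucleosomes and keep enhancers and promoters accessible to transcription factors. The related ATPase BRM, encoded by Smarca2, is scarcely expressed in mES cells, and the complexes there depend on BRG1. A degron tag derived from FKBP12 lets dTAG13 bring the tagged protein to an E3 ubiquitin ligase for destruction by the proteasome, so that the dose sets how much protein is left. The transcript of the tagged gene is not a target of the compound and does not report the protein level.

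The 4 libraries held 5483920 to 6375582 counted read pairs. Smarca4 stood at 67.6 and 65.1 RPKM at 1 nM and 66.3 and 63.9 RPKM at 10 nM (log2 fold change -0.026, standard error 0.055, edgeR adjusted p = 0.863), so that a change of its transcript was not detected. Smarca2 was below the expression filter, with 21 and 21 counts at 1 nM and 25 and 26 counts at 10 nM. The 5 markers of mES cells (Pou5f1, Sox2, Nanog, Zfp42 and Esrrb) summed to 1128 to 1150 RPKM at 1 nM and to 1145 to 1174 RPKM at 10 nM, and none of them was called. All 11 fibroblast markers were below the filter, with summed levels of 0.675 to 1.18 RPKM at 1 nM and 1.42 to 2.08 RPKM at 10 nM, and S100a4 was at 0 in the 4 libraries. The 6 primitive endoderm markers summed to 1.34 to 2.28 RPKM over the 4 libraries. The 5 trophectoderm markers summed to 13.7 to 16.7 RPKM, most of it Eomes, and the 4 mesoderm markers to 8.56 to 9.33 RPKM, most of it T, while Mesp1 was at 0. The ribosomal transcript Rn45s took 14.7% and 19.4% of the counts at 1 nM and 17.7% and 12.1% at 10 nM, and with Rn45s and Rpph1 left out 101 genes were called higher and 194 lower by the rule given next.

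Lower BRG1 was accompanied by more decreases than increases. At 10 nM, 94 genes were higher than at 1 nM (0.83% of the genes tested) and 196 were lower (1.73%), at an edgeR adjusted p under 0.05 with a fold change over 1.5. Here and throughout, the edgeR adjusted p is that of the quasi-likelihood test in a fit of all 12 libraries, with Benjamini-Hochberg adjustment over all genes tested, and genes past both thresholds are the ones called higher, lower or differentially expressed. The RNA came from whole cultures, in which fewer cells of a type and less RNA per cell cannot be told apart. Fold changes over 2 were found for 28 of the higher and 68 of the lower genes, and fold changes over 4 for 3 and 10 of them. In all 290 differentially expressed genes the 2 libraries of 10 nM lay beyond both libraries of 1 nM, which was also the case for 47.0% of all genes tested. Increases made up 32.4% of the differentially expressed genes, and 46.7% when library totals were used without normalisation factors (127 higher and 145 lower), a scaling that moved the median gene by 0.065 on the log2 scale. Without 1 nM replicate 1, without 1 nM replicate 2 or without 10 nM replicate 2, the genes called higher fell to 55, 55 and 60.

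**Figure D1:**
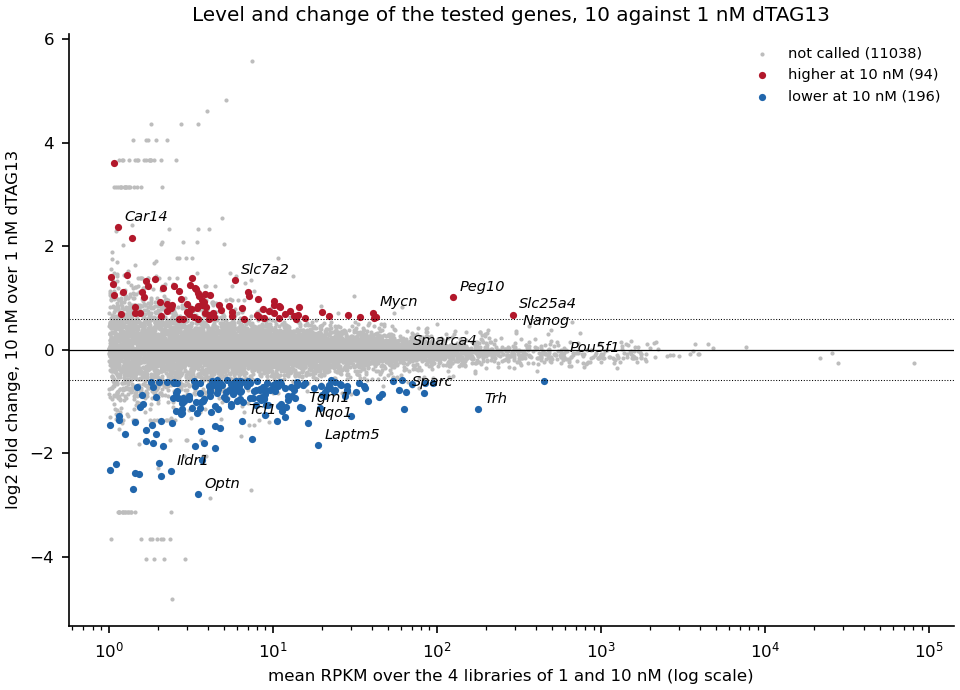
Each point is a tested gene, placed by its mean RPKM over the 4 libraries (horizontal, log scale) and its log2 fold change of 10 nM over 1 nM (vertical), with the 94 higher genes in red, the 196 lower genes in blue and the rest in grey. Dotted lines mark 1.5-fold, the blue points outnumber the red ones, and the grey points in bands at the left are genes with few counts, whose large fold changes did not pass the test.

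At 0 nM, the higher genes had lower levels by RPKM than the lower genes. The filter on the mean of the 1 and 10 nM libraries bears on this, since a gene that is low at 0 and 1 nM could pass it only by rising at 10 nM. The levels are therefore a description. In the libraries of 0 nM, which entered only the estimate of the spread, the 94 higher genes had a median of 2.63 RPKM and 88.3% of them were under 10 RPKM. The 196 lower genes had a median of 10.1 RPKM with 49.5% under 10 RPKM, close to the median of 9.48 RPKM and the share of 51.6% over all genes tested. At 3 nM, in libraries that also entered only that estimate, the mean lay between the means at 1 and 10 nM for 91 of the higher and 193 of the lower genes, against 44.6% of all genes tested. The called genes were selected for a wide gap between these doses. Their median absolute log2 fold change was 0.82 (higher) and 0.87 (lower), against 0.147 over all genes tested. A mean at another dose falls more readily into a wide gap, so that the 44.6% is not a like baseline.

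The 8 largest falls by fold were those of Optn, Cbr3, Klk8, Gpx2, Hal, Ildr1, Pknox2 and Cemip. Optn (mm10 chromosome 2 from 5020642 to 5063938) encodes optineurin, a receptor that delivers ubiquitin-marked cargo to autophagosomes. It stood at 5.86 and 6.34 RPKM at 1 nM and 1.03 and 0.714 RPKM at 10 nM (log2 fold change -2.79, standard error 0.28, edgeR adjusted p = 2.51e-07), which is 14.3% of its level at 1 nM. Ildr1 (mm10 chromosome 16 from 36693978 to 36726804), a protein of the tricellular junctions of epithelia, stood at 4.31 and 3.66 RPKM at 1 nM and 0.815 and 0.737 RPKM at 10 nM (log2 fold change -2.35, standard error 0.28, edgeR adjusted p = 3.08e-06). Laptm5 (mm10 chromosome 4 from 130913334 to 130936148), a membrane protein of lysosomes, was more abundant, at 30.6 and 28.2 RPKM at 1 nM and 8.06 and 8.34 RPKM at 10 nM (log2 fold change -1.84, standard error 0.11, edgeR adjusted p = 1.84e-11). In these 3 genes the libraries of each dose lay close together and far from those of the other dose. Hal, which starts the breakdown of histidine, had a log2 fold change of -2.38, and Klk8, a secreted serine protease, -2.44. Pknox2, a homeodomain transcription factor, had -2.33, and Cemip, a protein needed for the degradation of hyaluronan, -2.22 (edgeR adjusted p from 1.00e-05 for Cemip to 7.76e-04 for Klk8 in these 4). Cbr3, a carbonyl reductase, stood at 2.45 and 2.42 RPKM at 1 nM and 0.566 and 0.148 RPKM at 10 nM (log2 fold change -2.69, standard error 0.60, edgeR adjusted p = 0.00609). Leaving out 10 nM replicate 1 moved this to -3.88 (edgeR adjusted p = 0.0122). Leaving out replicate 2 moved it to -2.07 (edgeR adjusted p = 0.114). Lgals7 was named because its 10 nM libraries held only 3 and 2 counts against 11 and 13 at 1 nM. It was 3.96-fold lower with each 10 nM library set to a floor of 3 counts. This ratio makes no allowance for error in the counts at 1 nM and is not a lower bound.

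Among abundant transcripts, the 4 most expressed that fell were Vaultrc5, Trh, Ckb and Fn1. Trh, the precursor of thyrotropin-releasing hormone, stood at 258 and 230.1 RPKM at 1 nM and 112 and 109 RPKM at 10 nM (log2 fold change -1.15, standard error 0.072, edgeR adjusted p = 4.83e-11). Ckb, the brain form of creatine kinase, stood at 117 and 113 RPKM at 1 nM and 72.4 and 74.8 RPKM at 10 nM (log2 fold change -0.64, standard error 0.077, edgeR adjusted p = 3.23e-06). Both genes were separated between the doses by far more than the libraries of a dose differed. Vaultrc5, a small RNA of the vault particle, stood at 494 and 598 RPKM at 1 nM and 408 and 309 RPKM at 10 nM (log2 fold change -0.61, standard error 0.12, edgeR adjusted p = 0.00173), with a gap between the doses about as wide as that between the libraries of a dose. Its adjusted p was over 0.05 in 3 of 15 other settings, with a highest value of 0.0821 without 10 nM replicate 2.

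The 4 most abundant transcripts that rose were Slc25a4, Peg10, Plagl1 and Glul, and among the 8 largest rises by fold the one with the smallest p was Slc7a2. Slc7a2 (mm10 chromosome 8 from 40862367 to 40922070), which imports arginine and lysine, stood at 3.36 and 3.26 RPKM at 1 nM and 8.05 and 8.80 RPKM at 10 nM (log2 fold change 1.35, standard error 0.12, edgeR adjusted p = 3.67e-08). Peg10 (mm10 chromosome 6 from 4747306 to 4760516), an imprinted gene derived from a retrotransposon and needed in the placenta, stood at 82.6 and 84.0 RPKM at 1 nM and 165 and 172 RPKM at 10 nM (log2 fold change 1.02, standard error 0.054, edgeR adjusted p = 4.49e-12). Slc25a4 (mm10 chromosome 8 from 46207341 to 46211009), the ADP/ATP carrier of the inner mitochondrial membrane, stood at 229 and 217 RPKM at 1 nM and 348 and 366 RPKM at 10 nM (log2 fold change 0.68, standard error 0.063, edgeR adjusted p = 1.10e-07). None of the libraries of 10 nM came near those of 1 nM in these 3 genes. Plagl1, an imprinted zinc finger factor, had a log2 fold change of 0.64 (edgeR adjusted p = 6.72e-06), and Glul, glutamine synthetase, 0.61 (edgeR adjusted p = 4.97e-06).

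Of the 8 largest rises by fold, 7 were those of genes with at most 16 counts in each library of 1 nM, and Slc7a2 had 157 and 154 counts there. Slc7a2 kept an adjusted p under 0.05 in all 15 other settings, and the other 7 lost it in 3 to 7 settings each. Car14, a carbonic anhydrase of the cell surface, stood at 0.311 and 0.409 RPKM at 1 nM and 1.63 and 2.23 RPKM at 10 nM (log2 fold change 2.37, standard error 0.55, edgeR adjusted p = 0.00809), and overlaps Aph1a on the opposite strand, from which its reads were not separated because the counting did not use the strand. Wnt8a, a WNT ligand, stood at 0.222 and 0.766 RPKM at 1 nM and 2.94 and 1.59 RPKM at 10 nM (log2 fold change 2.17, standard error 0.57, edgeR adjusted p = 0.0194), with 1 nM and 10 nM libraries that varied widely. Its log2 fold change moved to 1.55 when 1 nM replicate 1 was left out. It moved to 3.28 when replicate 2 was. Mcmdc2 had a log2 fold change of 1.44, Pcdh1 1.41, Rac3 1.38 and Zscan5b 1.36. That of Rac3 moved to 2.10 when 1 nM replicate 1 was left out. It moved to 0.90 when replicate 2 was. Mcmdc2 encodes a protein of meiotic recombination, Pcdh1 a protocadherin and Zscan5b a zinc finger protein. 1700019A02Rik, with 1 and 0 counts at 1 nM against 6 and 9 at 10 nM, was 2.53-fold higher with the same floor set at 1 nM, again not a lower bound. Its adjusted p was over 0.05 in 7 of 14 other settings.

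**Figure D2:**
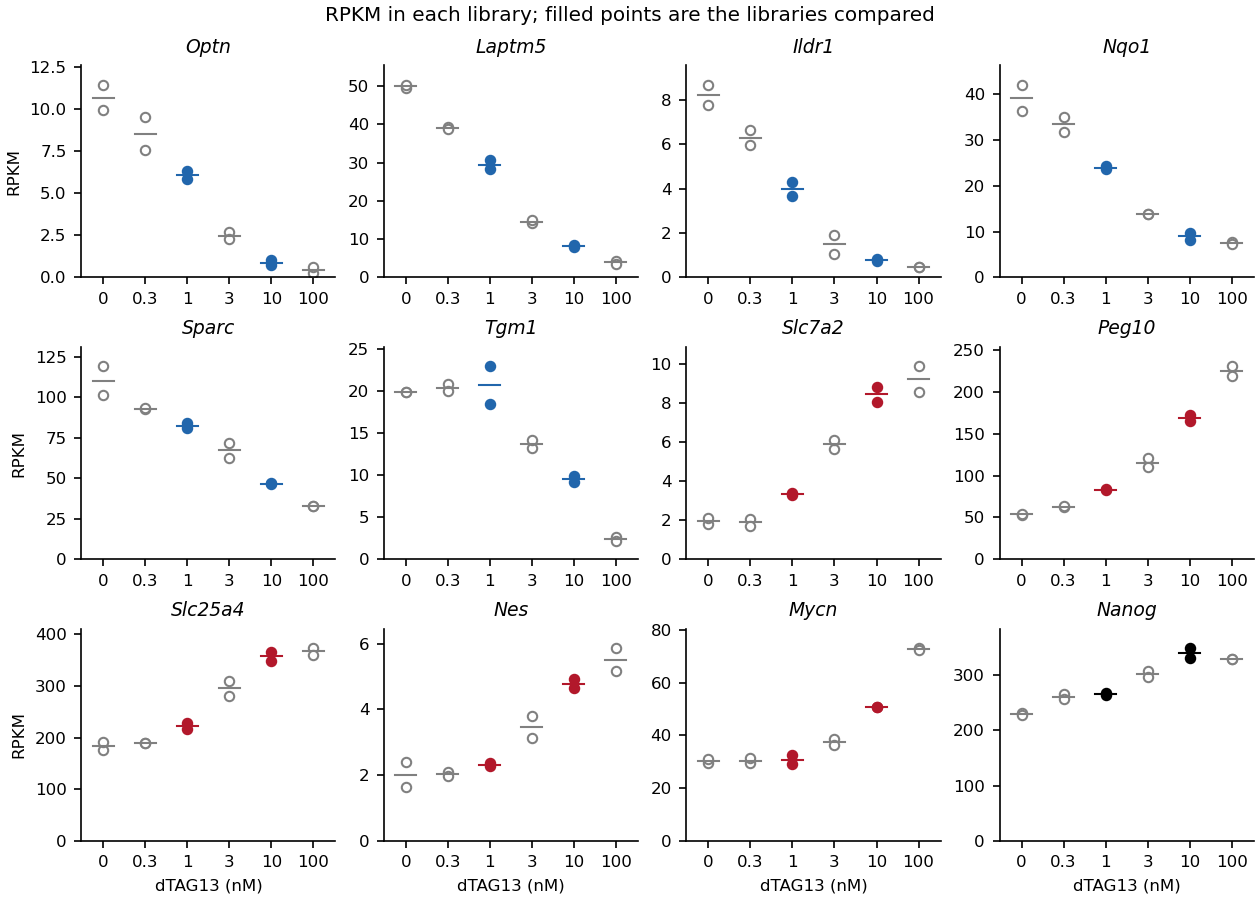
RPKM (vertical, linear, from 0) of 12 genes in every library at each dose of dTAG13 (horizontal), with a bar at the mean of the 2 libraries. The filled points are the libraries of 1 and 10 nM, in blue for genes called lower, red for genes called higher and black for Nanog, which was not called, and the open points are the other doses.

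Promoter sequences of a few of these genes are printed because they carry the motifs counted below, with each match to the named motif in capitals. They are the 250 bases before the transcription start in RefSeq (GRCm38.p6), 5′ to 3′ on the strand of the gene. The window of Optn is chr2:5064118-5064367 on the minus strand with 1 match to the KLF/SP motif GGGNGG that starts 37 bases before the start. That of Cldn4 is chr5:134946935-134947184 on the minus strand with AP-1 matches (TGANTCA) that start 240 and 158 bases before the start. For Tgm1 it is chr14:55713493-55713742 on the minus strand with STAT matches (TTCNNNGAA) that start 173 and 64 bases before the start. Plagl1, the only one of the 4 that rose, has chr10:13090582-13090831 on the plus strand with 1 E-box (CACGTG) that starts 182 bases before the start.
Optn: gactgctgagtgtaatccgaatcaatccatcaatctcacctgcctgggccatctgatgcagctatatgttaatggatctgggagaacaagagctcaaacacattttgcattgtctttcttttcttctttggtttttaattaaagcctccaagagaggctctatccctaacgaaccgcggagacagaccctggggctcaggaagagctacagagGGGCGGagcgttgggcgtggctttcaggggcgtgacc
Cldn4: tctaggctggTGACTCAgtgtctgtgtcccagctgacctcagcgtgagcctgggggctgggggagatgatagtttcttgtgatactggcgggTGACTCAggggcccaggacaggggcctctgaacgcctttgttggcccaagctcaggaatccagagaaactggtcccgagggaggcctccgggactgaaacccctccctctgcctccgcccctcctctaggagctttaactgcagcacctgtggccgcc
Tgm1: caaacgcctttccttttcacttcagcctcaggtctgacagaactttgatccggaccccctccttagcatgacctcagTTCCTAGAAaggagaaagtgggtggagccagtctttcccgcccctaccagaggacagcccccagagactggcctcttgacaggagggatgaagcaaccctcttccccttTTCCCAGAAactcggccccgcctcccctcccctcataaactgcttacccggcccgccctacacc
Plagl1: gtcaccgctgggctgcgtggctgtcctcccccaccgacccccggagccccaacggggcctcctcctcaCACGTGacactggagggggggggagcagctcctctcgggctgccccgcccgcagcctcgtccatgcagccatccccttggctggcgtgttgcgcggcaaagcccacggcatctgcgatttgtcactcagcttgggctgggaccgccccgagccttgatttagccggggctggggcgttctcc

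Over all genes, a promoter of 300 bases (250 before to 50 after the start) within 1000 bases of the gene's 5′ end was found for 68 of the 94 higher genes, 154 of the 196 lower genes and 8203 of the 11328 tested. Each motif was searched on both strands. CCAAT, the NFY motif, was in 20.6% of the promoters of higher genes, 37% of those of lower genes and 39.6% of all. The E-box was in 13.2%, 4.55% and 11.2%, and the AP-1 motif in 4.41% (3 genes), 7.14% (11 genes) and 4.07%. STAT matches were found in 8.82%, 6.49% and 6.79%, TEAD matches (GGAATG) in 14.7%, 11.7% and 11.4%, and GGGNGG in 92.6%, 92.2% and 88.2%. The median number of CG dinucleotides was 20 in the promoters of higher genes, 16 in those of lower genes and 22 in all. These shares are descriptions without a test, and a match is not evidence of binding.

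Gene lists were described by the number of members called, beside the 0.83% and 1.73% of all genes tested that were called higher and lower. The lists were written with earlier results of these data known. Shares above those of all genes may be partly built in by that choice, and no test is drawn from them. At an adjusted p under 0.05 without a fold minimum the shares over all genes were 2.57% and 3.74%, and at an unadjusted p under 0.05 they were 8.49% and 9.99%. Genes of the extracellular matrix and its receptors had the largest number of decreases among the 26 lists, with 7 of 26 tested members lower (26.9%) and 0 higher (DESeq2 also called 7 lower and 0 higher, and 7 members had an unadjusted p under 0.05 in the upward direction). Sparc, a secreted protein that binds collagen, stood at 83.8 and 81.1 RPKM at 1 nM and 47.0 and 46.2 RPKM at 10 nM (log2 fold change -0.82, standard error 0.078, edgeR adjusted p = 1.19e-07). Hspg2, the basement membrane proteoglycan perlecan, stood at 29.6 and 30.6 RPKM at 1 nM and 17.5 and 16.9 RPKM at 10 nM (log2 fold change -0.81, standard error 0.061, edgeR adjusted p = 2.26e-09). Fn1, fibronectin, stood at 104 and 101 RPKM at 1 nM and 67.6 and 63.5 RPKM at 10 nM (log2 fold change -0.64, standard error 0.059, edgeR adjusted p = 7.99e-08). Each of these was lower in both 10 nM libraries by far more than the gap between replicates. Serpinh1, the chaperone of collagen folding, had a log2 fold change of -1.18, and the integrin subunit Itga3 -0.99. Nid1 and Nid2, the nidogens that join laminin to collagen IV, had -0.78 and -0.71, and Nid2 overlaps a counted gene of the opposite strand. The median log2 fold change of the list was -0.084 against -0.0016 over all genes. Fibroblasts also make such proteins, and Thy1 was the highest of their 11 markers, with a mean of 0.482 RPKM over the 4 libraries. At an adjusted p under 0.05 without the fold minimum, 10 members were lower and 6 were higher, and the 6 comprised the laminin subunits Lamb1 (0.48) and Lamc1 (0.25), the collagen IV chain Col4a1 (0.40) and the integrins Itgav (0.46), Itgb1 (0.41) and Itga6 (0.35).

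Epithelial junction genes had 3 of 17 tested members lower (17.6%) and 0 higher, with 0 members higher at an unadjusted p under 0.05 and 0 called higher by DESeq2. Beside Ildr1 these were Cldn4, a claudin of tight junctions, at 15.5 and 16.5 RPKM at 1 nM and 7.57 and 9.71 RPKM at 10 nM (log2 fold change -0.89, standard error 0.15, edgeR adjusted p = 2.39e-04), and Jup, the plakoglobin of adherens junctions and desmosomes, at 31.6 and 31.2 RPKM at 1 nM and 20.3 and 19.6 RPKM at 10 nM (log2 fold change -0.65, standard error 0.073, edgeR adjusted p = 1.35e-06). The libraries of the 2 doses did not overlap in either gene, as in all genes called. Cdh1, E-cadherin, had a log2 fold change of -0.08 (edgeR adjusted p = 0.467), and the median of the list was -0.14.

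Among actin, SRF and YAP target and keratin genes, 3 of 19 tested members were lower (15.8%) and 0 higher, with 1 member higher at an unadjusted p under 0.05, and DESeq2 called 2 lower and 0 higher. Krt8, an intermediate filament protein of simple epithelia, stood at 7.18 and 7.001 RPKM at 1 nM and 1.74 and 3.25 RPKM at 10 nM (log2 fold change -1.51, standard error 0.25, edgeR adjusted p = 2.91e-04). Cnn2, a calponin that binds actin, had a log2 fold change of -0.74. Cyr61, a matrix protein and known YAP target, had -0.62, with an adjusted p over 0.05 in 4 of 15 other settings. The median of the list was -0.21. Emp1, below the filter, fell from 22 and 19 counts at 1 nM to 5 and 5 at 10 nM (log2 fold change -2.03, edgeR adjusted p = 0.00158 in the fit without a filter).

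Glutathione and NRF2 target genes had 4 of 18 tested members lower (22.2%) and 0 higher, with 1 member higher at an unadjusted p under 0.05, and DESeq2 called the same numbers. Nqo1, a quinone reductase and classical target of NRF2, stood at 24.3 and 23.6 RPKM at 1 nM and 8.20 and 9.78 RPKM at 10 nM (log2 fold change -1.41, standard error 0.14, edgeR adjusted p = 1.51e-07), or 37.6% of its level at 1 nM. Gpx2, a glutathione peroxidase, stood at 2.21 and 2.96 RPKM at 1 nM and 0.774 and 0.162 RPKM at 10 nM (log2 fold change -2.40, standard error 0.61, edgeR adjusted p = 0.0157) and had an adjusted p over 0.05 in 3 of 15 other settings. Its log2 fold change moved to -3.84 when 10 nM replicate 1 was left out. It moved to -1.71 when replicate 2 was. The glutathione transferases Gsto1 and Gstm1 had log2 fold changes of -0.69 and -1.58, where Gstm1 belongs to a family of close copies whose shared reads were left out of the counts. Gsto1 had an adjusted p over 0.05 in 1 and Gstm1 in 2 of 15 other settings. Other NRF2 targets of the list were not called. Hmox1, heme oxygenase, had a log2 fold change of -0.13, Txnrd1, thioredoxin reductase, -0.081, and Gclm, a subunit of the enzyme that makes the glutathione precursor, -0.17 (edgeR adjusted p = 0.393, 0.528 and 0.473). The median of the list was -0.14.

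In the core and naive pluripotency network 1 of 21 tested members was higher and 1 was lower (4.76% each). Over all genes tested the shares were 0.83% and 1.73%. The median log2 fold change of the list was -0.077. At an edgeR adjusted p under 0.05 without the fold minimum 3 members were higher and 3 lower, against 2.57% and 3.74% of all genes. At an unadjusted p under 0.05 there were 6 higher and 6 lower, against 8.49% and 9.99%. Tcl1, a coactivator of AKT, stood at 9.74 and 8.92 RPKM at 1 nM and 3.02 and 4.20 RPKM at 10 nM (log2 fold change -1.37, standard error 0.22, edgeR adjusted p = 1.67e-04). Nr5a2, a nuclear receptor that acts on Pou5f1, stood at 21.3 and 22.8 RPKM at 1 nM and 34.2 and 36.4 RPKM at 10 nM (log2 fold change 0.68, standard error 0.086, edgeR adjusted p = 7.11e-06). Both were separated between doses in every library, as were all genes called. Nanog stood at 267 and 263 RPKM at 1 nM and 332 and 349 RPKM at 10 nM (log2 fold change 0.36, standard error 0.051, edgeR adjusted p = 2.81e-05), a rise that passed the test in all 15 other settings but not the fold minimum. Dppa2 (0.45), Tfcp2l1 (-0.32) and Dppa5a (-0.32) also passed the test below the fold minimum. Pou5f1 (-0.16), Sox2 (0.14), Klf4 (0.16), Esrrb (-0.09) and Tbx3 (-0.21) had edgeR adjusted p values from 0.0904 for Tbx3 to 0.454 for Esrrb.

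Neural genes had 2 of 5 tested members higher (40%) and 0 lower, with 0 lower at an unadjusted p under 0.05 and 0 by DESeq2. Nes, the intermediate filament nestin of neural progenitors, stood at 2.36 and 2.28 RPKM at 1 nM and 4.64 and 4.92 RPKM at 10 nM (log2 fold change 1.04, standard error 0.16, edgeR adjusted p = 1.20e-04). Ncam1, a neural cell adhesion molecule, stood at 1.66 and 1.69 RPKM at 1 nM and 3.71 and 3.62 RPKM at 10 nM (log2 fold change 1.13, standard error 0.15, edgeR adjusted p = 1.36e-05). The libraries of a dose were nearly equal for both genes. Tubb3, neuronal tubulin, had 0.50 with an adjusted p under 0.05, and Sox1, the neural plate factor, had -0.055 (edgeR adjusted p = 0.897). The 2 genes that rose are also used outside the nervous system.

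Mycn and Mycl, which encode related transcription factors of the MYC family, moved in opposite directions. Mycn stood at 32.5 and 29.1 RPKM at 1 nM and 50.6 and 50.8 RPKM at 10 nM (log2 fold change 0.72, standard error 0.079, edgeR adjusted p = 8.80e-07). Mycl stood at 6.84 and 6.72 RPKM at 1 nM and 4.42 and 4.14 RPKM at 10 nM (log2 fold change -0.66, standard error 0.17, edgeR adjusted p = 0.0172), with an adjusted p over 0.05 in 6 of 15 other settings, DESeq2 among them. Myc had a log2 fold change of 0.30 (edgeR adjusted p = 0.0155), under the fold minimum, so that of 10 tested members of the MYC-MAX-MXD network 1 was higher and 1 was lower. In the WNT list, also with 1 higher and 1 lower of 15, Lef1, a nuclear effector of WNT signals, stood at 2.74 and 2.89 RPKM at 1 nM and 5.42 and 4.58 RPKM at 10 nM (log2 fold change 0.83, standard error 0.19, edgeR adjusted p = 0.00877), while Cdx1, a homeobox target of WNT signals, stood at 28.6 and 25.5 RPKM at 1 nM and 15.3 and 13.6 RPKM at 10 nM (log2 fold change -0.90, standard error 0.12, edgeR adjusted p = 1.02e-05). Lef1 had an adjusted p over 0.05 in 3 of 15 other settings and Cdx1 in none. In the BMP and ID list 1 of 12 was lower, the ligand Bmp4, at 9.28 and 10.3 RPKM at 1 nM and 5.22 and 6.05 RPKM at 10 nM (log2 fold change -0.79, standard error 0.19, edgeR adjusted p = 0.00897), with an adjusted p over 0.05 in 2 of 15 other settings.

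In the remaining lists with a call, a single member passed. Bmi1, a subunit of Polycomb repressive complex 1, was the 1 higher of 27 tested Polycomb genes (log2 fold change 0.59, edgeR adjusted p = 0.0161), and 5 others, Suz12 and Jarid2 among them, rose by less than the fold minimum. Sycp1, a protein of the synaptonemal complex, was the 1 higher of 8 germline genes (0.65, edgeR adjusted p = 0.0320). Pfkp, a phosphofructokinase, was the 1 lower of 20 glycolysis and hypoxia genes (-0.63, edgeR adjusted p = 2.76e-04), and it overlaps a counted gene of the opposite strand. Btg2, an antiproliferative gene, was the 1 lower of 16 p53 targets (-0.68, edgeR adjusted p = 0.00195). Bmi1, Sycp1 and Btg2 had an adjusted p over 0.05 in 3, 5 and 2 of 15 other settings, and DESeq2 called 0 of the Polycomb and 0 of the germline genes.

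Several lists had 0 members called by edgeR, and DESeq2 also called 0 in each of them. Among 25 mSWI/SNF subunit genes, 5 higher and 1 lower had an unadjusted p under 0.05, and the largest of these by test was Ss18 (0.26, edgeR adjusted p = 0.0222). Of 15 LIF-JAK-STAT3 genes 3 higher and 3 lower had an unadjusted p under 0.05, of 16 Nodal-Lefty genes 4 higher and 1 lower, and of 14 ERK feedback genes 3 higher and 2 lower. The counts were 3 higher and 2 lower of 10 genes of the formative and primed state, 2 higher and 1 lower of 8 of the retinoic acid response, and 0 higher and 4 lower of 20 of cholesterol synthesis. They were 0 higher and 1 lower of 5 trophectoderm genes, 1 higher and 0 lower of 3 mesoderm genes, 0 higher and 0 lower of 4 AP-1 factors and 0 higher and 0 lower of the 1 primitive endoderm gene tested. In the Nodal-Lefty list Nodal (0.51), its coreceptor Tdgf1 (0.38) and the inhibitor Smad7 (0.30) rose below the fold minimum. Only 1 of 39 Hox genes passed the filter, with a log2 fold change of 0.29 and no call, and among the 38 below it Hoxd13 rose from 5 and 8 counts to 20 and 24 (log2 fold change 1.72, edgeR adjusted p = 0.0138 in the fit without a filter).

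**Figure D3:**
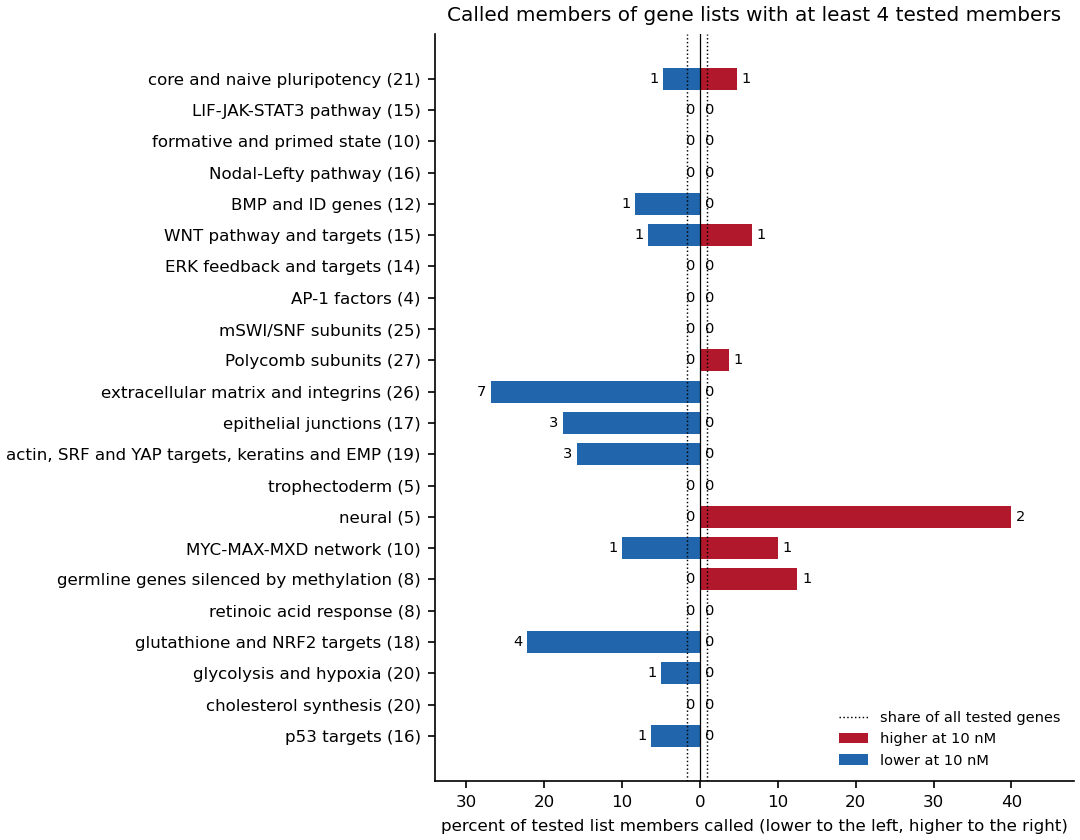
Bars give the percentage of tested members of each list that were called lower (blue, to the left) or higher (red, to the right) at 10 nM, with the number of called members at the bar's end and the number tested in parentheses. Dotted lines mark the shares over all genes tested, 1.73% and 0.83%, and the longest blue bar is that of the extracellular matrix list (26.9%).

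Whether the step from 1 to 10 nM repeats the step from 0 to 1 nM was tested gene by gene as the difference of the log2 fold changes. The steps differed for 25 genes (0.221% of those tested) at an edgeR adjusted p under 0.05. Between 10 and 1 nM 18 of them were differentially expressed, 17 lower and 1 higher, against 1.73% and 0.83% of all genes tested. The difference of the steps contains the change from 1 to 10 nM, so that this overlap is partly built in. In 21 of the 25 the step to 10 nM was the lower one. Tgm1, a transglutaminase of cornified epithelia, was at like levels at 0 and 1 nM (means of 19.8 and 20.7 RPKM) and lower at 10 nM (mean of 9.48 RPKM), with a difference of the steps of -1.18 (edgeR adjusted p = 0.00407). Mycn likewise had means of 30.4 and 30.8 RPKM at 0 and 1 nM and 50.7 RPKM at 10 nM (difference 0.70, edgeR adjusted p = 0.0273). Laptm5 fell in both steps, by 0.76 from 0 to 1 nM and by 1.84 from 1 to 10 nM on the log2 scale, and so did Optn, by 0.81 and 2.79. Sh3tc1 (-0.15 and then -1.81), Tpd52l1 (0.40 and -1.31) and Inhbb, a subunit of activin B (0.22 and -1.80), fell past the test in the second step and not in the first, as did the junction gene Jup and the matrix-linked genes Pcolce, an enhancer of procollagen processing, and Bcam, a laminin receptor. Lefty2, an inhibitor of Nodal, went the other way, with -1.09 in the first step and 0.076 in the second (edgeR adjusted p = 0.00407 for the difference), and in Scd2 and Map1b, too, the first step was the lower one. Both steps use the 1 nM libraries, and the number of genes rests on them: leaving out 1 nM replicate 1 left 1 gene, and leaving out 1 nM replicate 2 left 0 (edgeR, with 627 genes at an unadjusted p under 0.05). It was 38 without 10 nM replicate 1, 3 without normalisation factors and 14 with DESeq2 on all libraries.

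**Figure D4:**
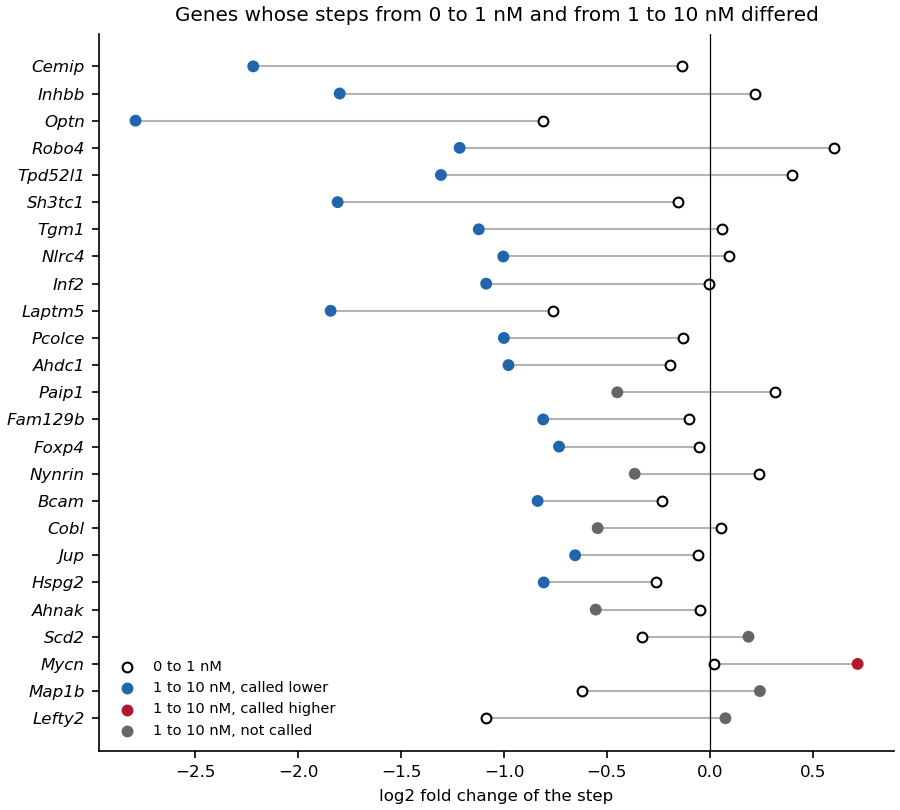
For each of the 25 genes (vertical) the log2 fold change (horizontal) of the step from 0 to 1 nM is an open circle and that of the step from 1 to 10 nM a filled one, in blue or red where the gene was called between 10 and 1 nM and grey where it was not. The filled circle lies to the left of the open one in 21 genes and to the right in Scd2, Mycn, Map1b and Lefty2.

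The same genes were then read in the other libraries, which took no part in the fold change of 10 over 1 nM and entered its test only through the estimate of the spread. The sample numbers of the 3 and 0.3 nM libraries repeat numbers used at other doses, and the labels do not say why. Between 3 and 0.3 nM, 88 of the 94 higher genes (93.6%) and 189 of the 196 lower genes (96.4%) changed in the same direction. Of all genes tested, 49.6% and 49.9% had that sign. Of the higher genes 25 were called higher there too (26.6%, against 86 or 0.759% of all tested), and of the lower genes 80 were called lower (40.8%, against 131 or 1.16%). These 80 make up 61.1% of the genes called lower between 3 and 0.3 nM, and the 25 make up 29.1% of those called higher. Between 100 and 0 nM, 71 of the higher genes were called higher (75.5%, against 499 or 4.41%) and 186 of the lower genes called lower (94.9%, against 758 or 6.69%), which is 14.2% and 24.5% of the genes called in that comparison. None of the 290 genes was called in the opposite direction in either comparison. The median log2 fold change of the lower genes was -0.87 between 10 and 1 nM, -0.56 between 3 and 0.3 nM and -1.56 between 100 and 0 nM, and that of the higher genes 0.82, 0.51 and 1.04.

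Single genes differed in how far they moved in the other libraries. Slc7a2 had log2 fold changes of 1.64 between 3 and 0.3 nM and 2.23 between 100 and 0 nM, and Peg10 0.88 and 2.07. Optn had -1.78 and -4.57, and Ildr1 -2.05 and -4.06. Gpx2, of few counts at 10 nM, had -3.03 and -4.50. Bmp4 was unlike them, with -0.015 between 3 and 0.3 nM (edgeR adjusted p = 0.983), and its means were 9.92, 10.2, 9.77 and 10.1 RPKM at 0, 0.3, 1 and 3 nM before 5.64 RPKM at 10 nM and 2.35 RPKM at 100 nM. Low values were thus seen at the 2 highest doses and at no lower one. Rac3, with means of 3.40 RPKM at 0 nM, 1.79 RPKM at 1 nM and 4.67 RPKM at 10 nM, had 0.072 between 100 and 0 nM, and 1700019A02Rik, at 1.75, 0.134 and 2.03 RPKM at the same doses, had -0.54 on the log2 scale. For both genes the mean at 1 nM was the lowest of these 3 doses.

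**Figure D5:**
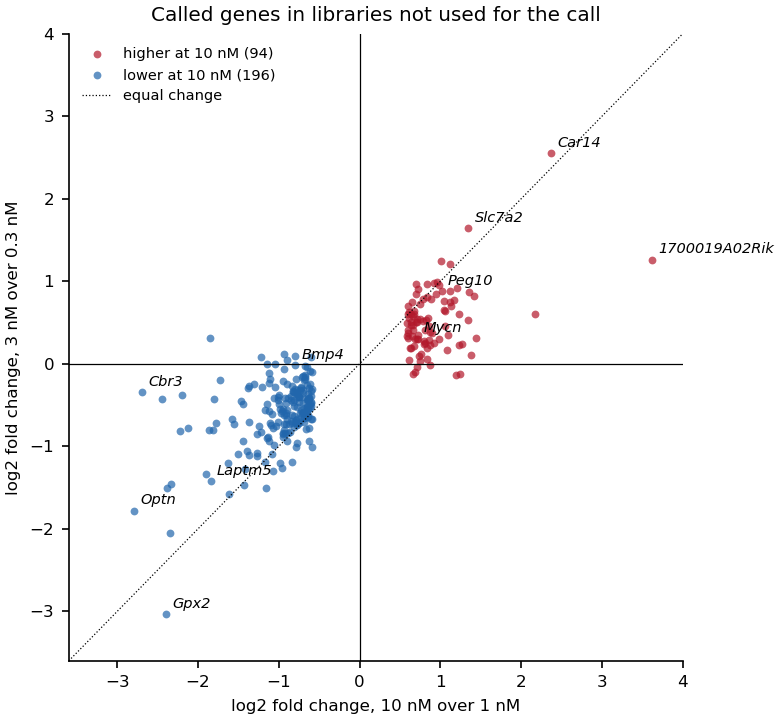
Each point is a gene called between 10 and 1 nM, placed by its log2 fold change there (horizontal) and by that between 3 and 0.3 nM (vertical), in libraries that took no part in the first fold change, with higher genes in red and lower genes in blue. Most points share their sign on both axes (88 of 94 and 189 of 196), and most lie nearer to 0 on the vertical axis than the dotted line of equal change.

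For the named genes the next step, from 10 to 100 nM, was read side by side, and no test is drawn from it, since it shares the 10 nM libraries. Tgm1 had a log2 fold change of -2.01, Bmp4 -1.25, Laptm5 -1.05, Tcl1 -0.99 and Trh -0.90, values with the same sign as from 1 to 10 nM. Slc25a4 (0.04), Nr5a2 (0.019), Slc7a2 (0.13), Krt8 (-0.15) and Nqo1 (-0.26) had values closer to 0, with means of 357 and 367 RPKM for Slc25a4 at 10 and 100 nM. Mycn (0.52), Peg10 (0.42) and Lef1 (0.76) also kept the sign of their step from 1 to 10 nM. Of the 8 largest falls, 4 had the opposite sign in the last step, Cbr3 (1.30), Pknox2 (1.27), Klk8 (1.15) and Gpx2 (0.18). At 10 nM their libraries held 4 and 1 counts (Cbr3), 8 and 6 (Pknox2), 4 and 6 (Klk8) and 5 and 1 (Gpx2). These genes were selected for low values at 10 nM, which by itself favours a higher value at the next dose. The 4 signs are therefore no evidence of a rise. The means at 10 and 100 nM were 0.357 and 0.915 RPKM for Cbr3 and 0.332 and 0.811 RPKM for Pknox2. They were 0.641 and 1.43 RPKM for Klk8 and 0.468 and 0.541 RPKM for Gpx2. All 4 genes were at higher means at 0 nM.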

How the data were processed

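RNA-seq libraries were made from total RNA with a SMART-Seq Stranded kit, 2 for each of 6 doses of dTAG13. The authors trimmed reads with Trim Galore, aligned them to mm10 with HISAT2 and summed fragments over exons by gene with featureCounts 2.0.1. The deposited values are raw counts per gene symbol with gene lengths, without normalisation. Per the file headers, both ends had to align, multi-mapped fragments were dropped and counting was unstranded, although the kit is stranded. Of the 60 named genes, 5 overlap a counted gene on the opposite strand (Car14, Bmp4, Nid2, Ncam1 and Pfkp). A further 3 overlap a counted gene on the same strand (Plagl1, Sox2 and Tpd52l1).

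The RPKM printed was computed from the counts with gene lengths and TMM factors taken over the 11328 genes tested. For the filter that chose these genes, RPKM was computed with TMM factors taken over all genes in the count table. All 12 libraries were fitted as 6 conditions with edgeR 4.0.16 (limma 3.58.1, R 4.3.3), giving a biological coefficient of variation of 6.19%, and contrasts were tested by its quasi-likelihood test with Benjamini-Hochberg adjustment. The likelihood ratio test of the study's methods was run as an alternative, beside DESeq2 1.42.0, other scalings, filters, sets of libraries and fold minimums. Total counts ran from 4663484 to 6375582 over the 12 libraries. Without molecular identifiers, floors (3 counts) concern counting error of the low counts only, and the folds printed with them are not bounds. The study describes its replicates as independent experiments, and the labels do not say what separates them. The members and gene lists were chosen with earlier results of these data known. Genes named were the 8 largest rises and falls with libraries that did not overlap, the 4 most abundant called in each direction, up to 4 called members of each of 26 lists in each direction, the genes the study names for its RNA-seq, and up to 4 in each direction whose steps differed. Names beyond these were chosen after their values were seen. Promoters came from RefSeq (GRCm38.p6) and were matched by symbol for 8377 tested genes, 8203 of them within 1000 bases of the gene's 5′ end. The summed level of the neural markers is not reported here.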

Additional observations from a re-analysis of the deposited data

How the results depend on the processing

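Of the alternatives, no normalisation factors, DESeq2 size factors, TMM over all genes (chosen after seeing the data), leaving out Rn45s and Rpph1, the 2 other filters, the likelihood ratio test and the 8 libraries of 0, 1, 10 and 100 nM kept the numbers of higher and lower genes within 1.5 times those reported. The genes called higher moved from 94 to 46 with DESeq2's Wald test, 56 in a pairwise fit, 291 without a fold minimum and 28 with a fold over 2, and ranged from 55 to 90 with each library left out. The genes called lower moved from 196 to 424 without a fold minimum and 68 with a fold over 2, and ranged from 143 to 182 with each library left out. Genes whose steps differed moved from 25 to 14 with DESeq2, 3 without normalisation factors, 49 without an RPKM filter, 8 in a pairwise fit and 11 with a fold over 2, and from 0 to 38 with each library left out. The causes were not tested, apart from fewer libraries or genes by construction. Same-sign shares in the other libraries stayed between 91.4% and 97.8% (3 against 0.3 nM) and between 96.0% and 100% (100 against 0 nM) in all settings that hold these libraries. A library left alone at its dose was assumed to vary like the others. Replicates with the same number did not deviate together (correlation of their differences -0.081 between 1 and 10 nM, -0.106 to 0.0812 over 15 pairs of doses). A replicate block gave 86 higher and 194 lower genes, 278 of the 290 kept, 24 genes whose steps differed, and same-sign shares of 96.4% and 99.3%. No named gene that was called changed its direction in any setting. DESeq2 left 4 of 52 named called genes without an adjusted p and took 9 of the other 48 past 0.05.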
